A study of Mus musculus with 20 samples.

Results

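The genes described here are 10 genes of hepatic stellate cells and of the extracellular matrix of the liver: Reln, Lrat, Des, Pdgfrb, Ecm1, Dcn, Lum, Col1a1, Col1a2 and Col3a1. They were chosen by symbol, and each had 1 probe set assigned to it alone, so that 10 of 25689 probe sets with values, and 10 of the 19661 genes with a probe set of their own name, are concerned. The choice was made with results of these arrays known, and which comparison led to it is not recorded. The levels, differences and adjusted p-values of the 10 genes are therefore a description and carry no weight as tests.

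Liver RNA of WT and Crem KO mice was hybridised to 20 Affymetrix Mouse Gene 1.0 ST arrays, 1 mouse per array. All mice were untreated and 8 weeks old, had a mixed background (129Pas x C57Bl/J) and were kept in alternating light and darkness of equal length. Livers were taken at light onset (0 h) from 5 WT and 5 KO mice and at light end (12 h) from 5 other WT and 5 other KO mice. The KO mice are labelled Crem-/-, and the labels describe no further detail of the allele. Crem encodes a transcription factor that binds cAMP response elements. The deposited values are RMA-normalized levels on the log2 scale, so that a difference of 1 is a doubling, and levels of different genes are not compared with each other. Because whole liver was measured, fewer cells of a type and less RNA per cell cannot be told apart.

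Stellate cells lie between the hepatocytes and the sinusoidal endothelium, store vitamin A as retinyl esters and, after injury, turn into matrix-producing myofibroblasts. In the healthy liver they are quiescent, and the fibrillar collagens and small proteoglycans of the portal tracts are made mainly by portal fibroblasts. Reelin, the product of Reln, is a secreted glycoprotein best known from neuronal migration, which in the liver is made by stellate cells. Lrat is a widely used marker of these cells in the liver. Several of the other genes are not exclusive to them, since Des and Pdgfrb are also used by vascular smooth muscle cells and pericytes, and Dcn, Lum and the collagens by fibroblasts.

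The median log2 level of an array lay between 7.18 and 7.24 at 0 h and between 7.07 and 7.17 at 12 h. Batches 1 to 4 hold the 0 h arrays, each with both genotypes, and batch 5 holds every 12 h array, so batch and time of day cannot be told apart. The array of WT mouse 80 stood apart from the other WT arrays at 0 h: its median was 7.24 against 7.18 to 7.19 in those 4 and 7.19 to 7.23 in the KO mice at 0 h. It had the highest level of its group for 6 of the 10 genes (Reln, Ecm1, Col1a1, Col1a2, Col3a1 and Des). Crem was lower in all KO mice than in every WT mouse of the same time except in the array labelled KO mouse 1. There its log2 level was 8.17 against 8.11 to 8.54 in the WT mice at 0 h. The 8.11 was that of WT mouse 80, and the other WT mice at 0 h lay at 8.24 to 8.54. Results are given with both arrays. For the comparisons of times and of genotypes, the counts of the 10 genes that passed without them are also given.

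The regions before the start sites of 6 of the 10 genes were held in the RefSeq promoter table of GRCm38.p6 (Reln, Lrat, Ecm1, Des, Col1a2 and Col3a1). Those of Reln and Lrat are shown because these genes had the higher level at 12 h in WT livers, described below. Each runs 5′ to 3′ on the strand of the gene and ends at the base before the start site. In Reln (chr5:22344706-22344955, minus strand) capitals mark the GC box (GGGCGG or its complement) and the E-box CACGTG, the letters bound by CLOCK and BMAL1 and by other basic helix-loop-helix factors. In Lrat (chr3:82903975-82904224, minus strand) they mark the CCAAT box (CCAAT) and the GC box.
Reln: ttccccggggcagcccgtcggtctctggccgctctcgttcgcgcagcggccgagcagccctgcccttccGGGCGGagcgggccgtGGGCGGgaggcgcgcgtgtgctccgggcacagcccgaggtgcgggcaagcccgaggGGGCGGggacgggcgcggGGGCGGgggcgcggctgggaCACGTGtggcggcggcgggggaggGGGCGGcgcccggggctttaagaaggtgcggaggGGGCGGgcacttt
Lrat: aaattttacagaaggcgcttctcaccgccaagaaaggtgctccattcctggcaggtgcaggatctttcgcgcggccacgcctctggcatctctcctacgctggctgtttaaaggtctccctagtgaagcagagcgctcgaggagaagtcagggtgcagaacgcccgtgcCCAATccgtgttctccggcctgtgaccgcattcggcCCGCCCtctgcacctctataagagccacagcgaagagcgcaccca

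The Reln region held 6 GC boxes and 1 E-box, which lay 71 to 66 bases before the start site, and 80.0% of its bases were G or C, against a median of 52.4% over all 32851 promoter regions of the table. The E-box occurred in no other of the 6 regions and in 6.02% of all regions. The GC box occurred in 5 of the 6 regions and in 32.7% of all. The full cAMP response element TGACGTCA and its first letters TGACG, which lie within it, were in none of the 6 regions, and in 1.55% and 17.8% of all regions. The AP-1 site TGAGTCA was in the Ecm1 region (4.46% of all). The CCAAT box was in the Lrat and Col1a2 regions (33.8% of all). Each of these motifs was sought on both strands over 250 bases. These matches describe letters, and binding was not measured.

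Between 0 h and 12 h the 10 genes did not move together. In WT livers Reln and Lrat were higher at 12 h and Dcn was lower, and in KO livers Dcn and Lum were lower, at a limma adjusted p under 0.05 over all probe sets. The 3 genes of 10 in WT stand beside 27.8% of all probe sets that passed in that comparison, and the 2 of 10 in KO beside 20.3%. Without WT mouse 80 and KO mouse 1, 4 of 10 passed in WT and 3 of 10 in KO, with Col1a2 added in both. The 27.8% and 20.3% belong to the fit with all 20 arrays, and the shares without these mice are not given here. The median difference of the 10 genes was 0.02 in WT and 0.05 in KO, against -0.03 and -0.02 over all probe sets.

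**Figure D1:**
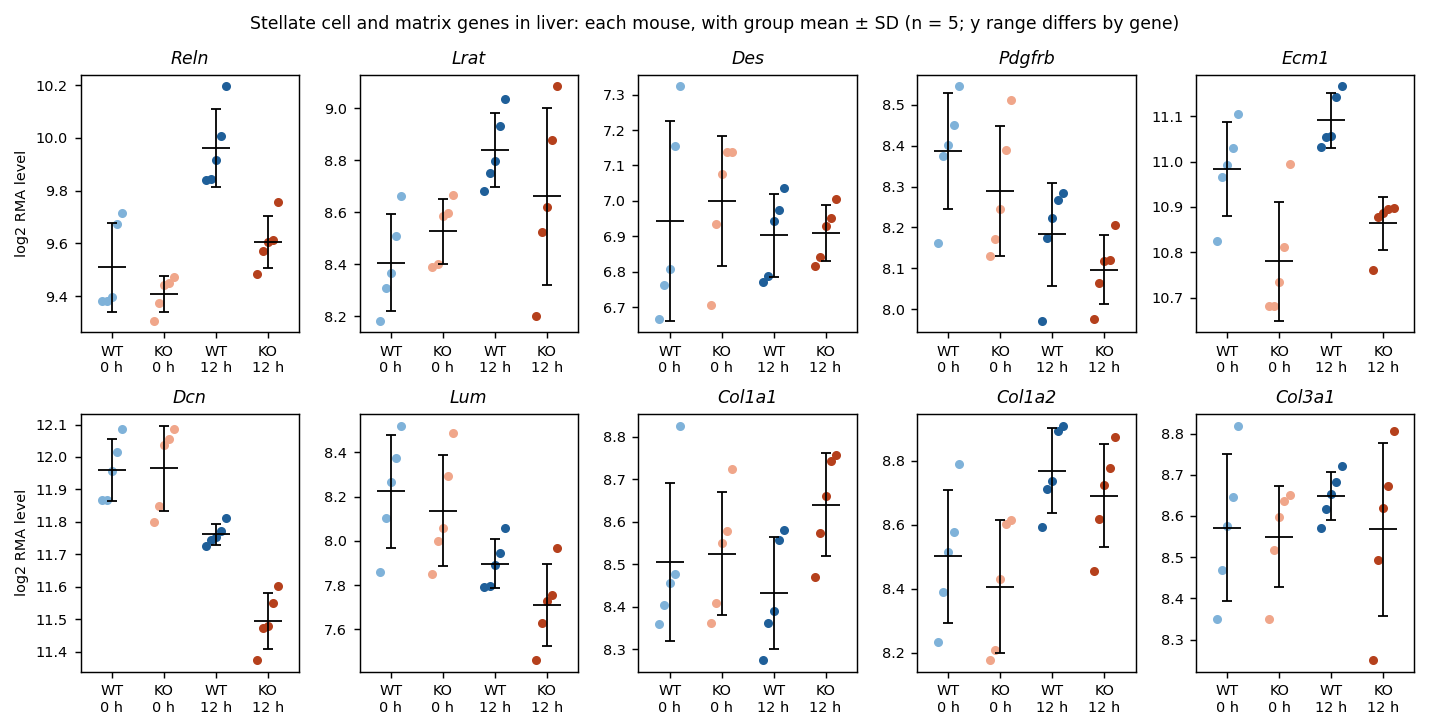
Log2 RMA level (y axis, range differs by gene) of the 10 genes in each of 20 livers by group (x axis); points are mice and bars the mean ± SD of 5 mice. For Reln the 5 WT mice at 12 h lie at 9.84 to 10.20, above all other mice, and for Dcn the 5 KO mice at 12 h lie at 11.37 to 11.60, below all other mice.

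For Reln the WT mice at 12 h lay above all other mice. Its log2 levels were 9.38, 9.38, 9.40, 9.67 and 9.71 in the WT mice at 0 h and 9.84, 9.84, 9.92, 10.01 and 10.20 in those at 12 h. In KO mice they were 9.31, 9.37, 9.44, 9.45 and 9.47 at 0 h and 9.48, 9.57, 9.61, 9.61 and 9.76 at 12 h. The 2 times did not overlap in either genotype, which was the case for 17.5% of all probe sets in WT and 16.4% in KO. The difference was 0.45 in WT (1.37-fold, 95% confidence interval 0.28 to 0.63, limma adjusted p = 0.000413) and 0.20 in KO (1.15-fold, interval 0.02 to 0.37, limma adjusted p = 0.104). Ordered by their means, the groups ran from KO at 0 h (9.41 ± 0.07, SD, n = 5) through WT at 0 h (9.51 ± 0.17) and KO at 12 h (9.61 ± 0.10) to WT at 12 h (9.96 ± 0.15). WT at 0 h overlapped with the groups on either side of it in this order, and WT at 12 h with none.

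Lrat encodes lecithin retinol acyltransferase, which forms the retinyl esters that stellate cells store. Its log2 levels were 8.18, 8.31, 8.37, 8.51 and 8.66 in WT mice at 0 h and 8.68, 8.75, 8.80, 8.93 and 9.03 at 12 h. All 5 WT mice at 12 h thus lay above those at 0 h, by a difference of 0.43 (1.35-fold, 95% confidence interval 0.17 to 0.70, limma adjusted p = 0.0139). In KO mice the levels were 8.39, 8.40, 8.58, 8.60 and 8.67 at 0 h and 8.20, 8.52, 8.62, 8.88 and 9.09 at 12 h. The KO groups overlapped, and their spread at 12 h (SD 0.34, n = 5) was larger than that of the WT mice (SD 0.14, n = 5). The KO difference was 0.13 (interval -0.13 to 0.40, limma adjusted p = 0.502). A further quantile normalization took the WT call away (0.35, limma adjusted p = 0.0506).

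Decorin, encoded by Dcn, is a small leucine-rich proteoglycan that binds collagen fibrils and TGF-beta. Its log2 levels in WT mice were 11.87, 11.87, 11.96, 12.02 and 12.09 at 0 h and 11.73, 11.75, 11.75, 11.77 and 11.81 at 12 h. In KO mice they were 11.80, 11.85, 12.04, 12.06 and 12.09 at 0 h and 11.37, 11.47, 11.48, 11.55 and 11.60 at 12 h. The times did not overlap in either genotype, and the KO mice at 12 h lay below the other 15 mice. Dcn fell by 0.47 in KO (a 1.38-fold lower level, 95% confidence interval of the difference -0.61 to -0.32, limma adjusted p = 3.9e-05). In WT the difference was -0.20 (interval -0.34 to -0.05, limma adjusted p = 0.0387), and it did not pass with each array centred on its median (-0.11, limma adjusted p = 0.296) or with only the WT arrays in the fit (limma adjusted p = 0.059). Leaving out any of 7 of the 10 WT mice also took that call away, the smallest difference being that without WT mouse 146 (-0.17, limma adjusted p = 0.101). With the deposited values as they are, the KO mice at 0 h and the WT mice at 12 h overlapped at 11.80 to 11.81.

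Lumican, the product of Lum, is a related proteoglycan of collagen fibrils, and Lum lies next to Dcn on chromosome 10. Its log2 levels in KO mice were 7.85, 8.00, 8.06, 8.29 and 8.49 at 0 h and 7.46, 7.63, 7.73, 7.75 and 7.97 at 12 h. Here 4 of 5 KO mice at 12 h lay below every KO mouse at 0 h, and the difference was -0.43 (1.35-fold lower, 95% confidence interval -0.68 to -0.17, limma adjusted p = 0.0164). That call was lost without KO mouse 143 (limma adjusted p = 0.057), where the difference was -0.34, and without KO mouse 18, where it was -0.37. In WT mice the levels were 7.86, 8.10, 8.26, 8.38 and 8.52 at 0 h and 7.79, 7.80, 7.89, 7.94 and 8.06 at 12 h. The WT groups overlapped, with a difference of -0.33 (interval -0.58 to -0.07, limma adjusted p = 0.0516).

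**Figure D2:**
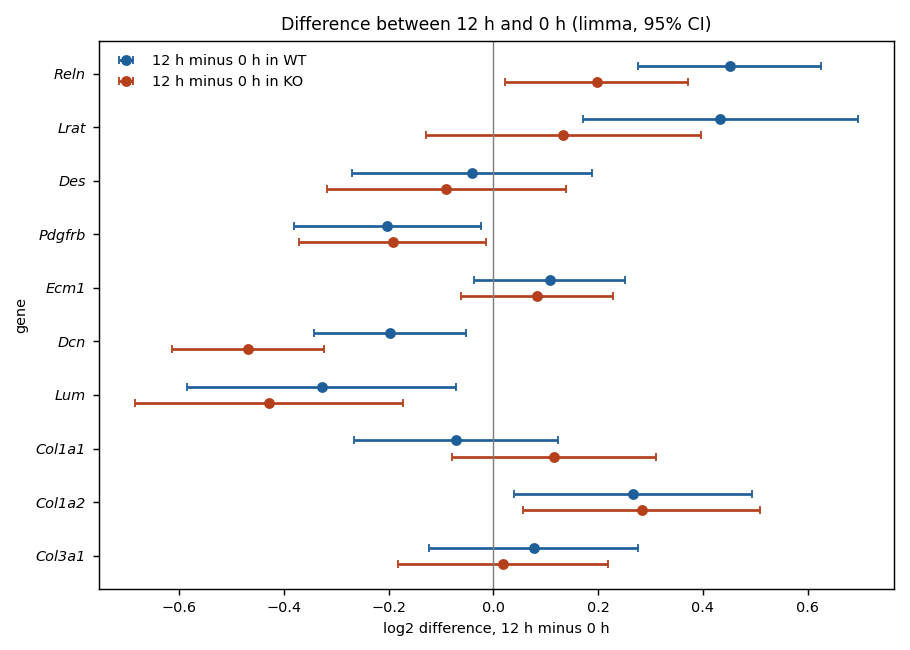
Log2 difference between 12 h and 0 h (x axis) of each of the 10 genes (y axis) in WT (blue) and KO livers (red), with 95% confidence intervals from limma over 5 mice per group. Reln and Lrat lie at 0.45 and 0.43 in WT, and Dcn and Lum at -0.47 and -0.43 in KO.

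Among the fibrillar collagen genes Col1a2 differed most between the times. Col1a1 and Col1a2 encode the chains of type I collagen and Col3a1 that of type III. Col1a2 ranged from 8.23 to 8.79 in WT mice at 0 h and from 8.59 to 8.91 at 12 h, and in KO mice from 8.18 to 8.61 and from 8.46 to 8.87. Its difference was 0.27 in WT (limma adjusted p = 0.0724) and 0.28 in KO (limma adjusted p = 0.0717), and both passed with each array centred on its median (0.35, limma adjusted p = 0.0147, and 0.34, limma adjusted p = 0.0224). Col1a1 differed by -0.07 in WT and 0.12 in KO, and Col3a1 by 0.08 and 0.02, with all 4 intervals including 0. The WT difference of Col1a1 turned to 0.02 with centred arrays. The chains of type I collagen thus had unlike values in WT livers, and whether their differences differ from each other was not tested.

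Pdgfrb encodes the PDGF receptor beta and Des the intermediate filament protein desmin. Pdgfrb ranged from 8.16 to 8.55 in WT mice at 0 h and from 7.97 to 8.28 at 12 h, and in KO mice from 8.13 to 8.51 and from 7.98 to 8.21. Its differences of -0.20 in WT (limma adjusted p = 0.0821) and -0.19 in KO (limma adjusted p = 0.121) did not pass, but the WT difference passed after a further quantile normalization (-0.25, limma adjusted p = 0.0374) and without WT mouse 145 (limma adjusted p = 0.0298). Des lay between 6.67 and 7.32 over all 20 mice, with differences of -0.04 and -0.09. Its mean level was at percentile 44.8 of all probe sets, so Des was left out of the fit with only bright probe sets. Ecm1, which encodes a secreted glycoprotein of the matrix, had differences of 0.11 in WT and 0.08 in KO, each with an interval that included 0.

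The time differences of the 2 genotypes were set against each other with the interaction term of limma. None of the 10 genes passed, and 0% of all probe sets did (6.84% at an unadjusted p under 0.05). At an unadjusted p under 0.05 the count was 2 of 10. For Dcn the KO difference minus the WT difference was -0.27 (95% confidence interval -0.48 to -0.07, limma adjusted p = 0.639), and for Reln it was -0.25 (interval -0.50 to -0.01, limma adjusted p = 0.725). For Lrat the value was -0.30 (interval -0.67 to 0.07, limma adjusted p = 0.788).

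Between KO and WT livers none of the 10 genes passed at 0 h, at 12 h or over both times, and the share of all probe sets that passed was 0% at 0 h, 0.0234% at 12 h and 0.0117% over both times. At 12 h Reln, Dcn and Ecm1 were lower in all 5 KO mice than in every WT mouse. These 3 of 10 genes stand beside 1.24% of all probe sets that were lower in KO without overlap at 12 h. At 0 h the genotypes overlapped for all 10 genes, and 0.728% of all probe sets did not overlap. The difference was below 0 for 6 of 10 genes at 0 h (50.3% of all probe sets), for 8 of 10 at 12 h (49.6%) and for 8 of 10 over both times (49.3%). At an unadjusted p under 0.05, limma gave 1 of 10 genes at 0 h (4.47% of all probe sets), 4 of 10 at 12 h (12.5%) and 3 of 10 over both times (9.88%). WT mouse 80 and KO mouse 1 were taken at 0 h and have no part in the separation at 12 h, and without them none of the 10 genes passed either.

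**Figure D3:**
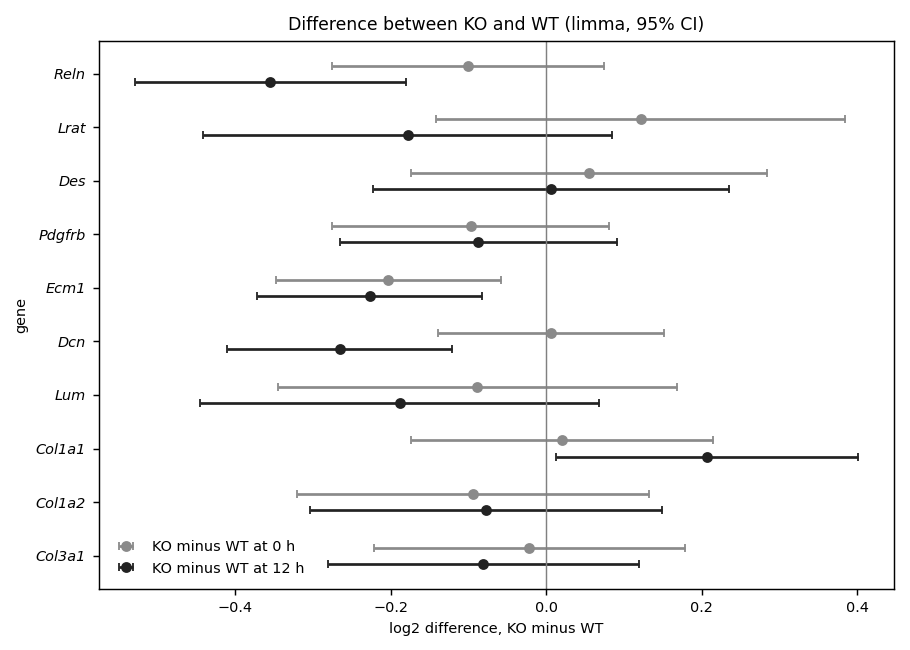
Log2 difference between KO and WT (x axis) of each of the 10 genes (y axis) at 0 h (grey) and 12 h (black), with 95% confidence intervals from limma over 5 mice per group. Ecm1 lies at -0.20 and -0.23 at the 2 times, and Reln and Dcn lie at -0.35 and -0.27 at 12 h but at -0.10 and 0.01 at 0 h.

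Ecm1 had a lower mean in KO livers at each time, and neither interval included 0. Its log2 levels at 0 h were 10.82, 10.96, 10.99, 11.03 and 11.11 in WT and 10.68, 10.68, 10.73, 10.81 and 10.99 in KO mice, of which 4 of 5 lay below every WT mouse. At 12 h they were 11.03, 11.05, 11.06, 11.14 and 11.17 in WT and 10.76, 10.88, 10.89, 10.90 and 10.90 in KO mice. The difference was -0.20 at 0 h (95% confidence interval -0.35 to -0.06, limma adjusted p = 0.987), -0.23 at 12 h (1.17-fold lower, interval -0.37 to -0.08, limma adjusted p = 0.185) and -0.22 over both (interval -0.32 to -0.11, limma adjusted p = 0.176). KO minus WT was below 0 within each of the 5 batches, at -0.12, -0.22, -0.05 and -0.28 in batches 1 to 4, of which batches 1 and 3 hold 3 mice each and batches 2 and 4 hold 2. With batch as a fixed block the difference over both times was -0.19 (limma adjusted p = 0.247).

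For Reln the levels given above put KO below WT at 12 h by 0.35 (95% confidence interval of the difference -0.53 to -0.18, a 1.28-fold lower level, limma adjusted p = 0.0996). At 0 h the genotypes overlapped, with a difference of -0.10 (interval -0.27 to 0.07, limma adjusted p = 0.987). For Dcn KO lay below WT at 12 h by 0.27 (interval of the difference -0.41 to -0.12, a 1.20-fold lower level, limma adjusted p = 0.136), and at 0 h the difference was 0.01 (interval -0.14 to 0.15). Col1a1 was the only member with an unadjusted p under 0.05 in the other direction at 12 h, at 8.27 to 8.58 in WT and 8.47 to 8.76 in KO mice (difference 0.21, interval 0.01 to 0.40, limma adjusted p = 0.363). The other 6 genes had differences between -0.19 (Lum) and 0.01 (Des) at 12 h.

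Other genes of the stellate cell were looked at for comparison. Of 20 further stellate cell markers 19 were measured, and none passed between KO and WT at any time. Of these, Colec10, a collectin, came nearest at 12 h (-0.47, limma adjusted p = 0.0529), followed by Vipr1, a receptor for vasoactive intestinal peptide (-0.33, limma adjusted p = 0.0859). The mean log2 level of the 19 genes was 8.01 to 8.18 in WT and 7.96 to 8.04 in KO mice at 12 h, and these ranges overlapped. At 12 h the difference was below 0 for 12 of 19 and above 0 for 7, beside 49.6% of all probe sets below 0. At an unadjusted p under 0.05 limma gave 6 of 19 at 12 h, beside 12.5% of all probe sets.

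Markers of sinusoidal endothelial cells, which line the vessels next to the stellate cells, gave no gene that passed between KO and WT at either time or over both. Over both times the difference was below 0 for 14 of 14 (median -0.16, against 0.00 and 49.3% below 0 over all probe sets), and 9 of 14 had an unadjusted p under 0.05 by limma, beside 9.88% of all probe sets. Their mean log2 level was 9.51 to 9.75 in WT and 9.30 to 9.54 in KO mice at 12 h, and 9.52 to 9.59 and 9.35 to 9.56 at 0 h. The lowest limma adjusted p was that of Gpr182 (-0.32, 0.135), followed by Stab2, a scavenger receptor of these cells (-0.24, 0.176). Their part in the differences of Reln, Dcn and Ecm1 was not tested. Of 9 hepatocyte markers none passed between genotypes, and their mean log2 level was 13.08 to 13.17 in WT and 13.00 to 13.08 in KO mice at 12 h. Of 15 portal fibroblast and mesothelium markers and of 10 smooth muscle markers none passed either, nor did any of 12 Kupffer cell, 6 cholangiocyte, 8 blood cell and 5 adipose markers. Over both times the difference was below 0 for 10 of 12 Kupffer cell, 7 of 9 hepatocyte and 4 of 6 cholangiocyte markers. It was below 0 for 3 of 5 adipose, 6 of 15 portal fibroblast and mesothelium, 4 of 10 smooth muscle and 0 of 8 blood cell markers. At 12 h alone it was below 0 for 5 of 12 Kupffer cell markers.

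Of 12 clock genes 10 passed between 0 h and 12 h in WT (8 rose and 2 fell) and 12 in KO (8 rose and 4 fell). Because batch 5 holds every 12 h array, these counts alone cannot check the time labels. With time, 5 of the 19 stellate markers passed in WT (26.3%, beside 27.8% of all probe sets) and 3 in KO (15.8%, beside 20.3%). Vipr1 rose in WT (0.51, limma adjusted p = 1.78e-05) and KO (0.33, limma adjusted p = 0.00176), and Pdgfra, a PDGF receptor, rose in WT (0.28, limma adjusted p = 0.045). Ngfr, the low-affinity neurotrophin receptor, and the transcription factors Tcf21 and Lhx2 fell in WT by 0.32, 0.31 and 0.32, with limma adjusted p of 0.0114, 0.0209 and 0.0225, and Tcf21 and Ngfr fell in KO by 0.41 and 0.27, with limma adjusted p of 0.0044 and 0.0422. Kupffer cell markers moved beside them: 7 of 12 fell and 1 rose in WT (66.7%), and 2 fell and 1 rose in KO (25%). The mean log2 level of these 12 was 9.39 to 9.69 at 0 h and 9.10 to 9.43 at 12 h in WT mice. In KO mice it was 9.20 to 9.70 and 9.14 to 9.54, and the times overlapped in both genotypes. Their part in the time differences of the stellate and matrix genes was not tested.

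Reelin acts through the receptors VLDLR and ApoER2, the adaptor DAB1 and Src family kinases. Of 14 genes of this pathway other than Reln, 6 rose and none fell in WT at 12 h (42.9%, beside 27.8% of all probe sets), and 3 rose and none fell in KO (21.4%, beside 20.3%). Rapgef1, an exchange factor downstream of DAB1, rose by 0.42 in WT (limma adjusted p = 6.86e-05) and 0.52 in KO (limma adjusted p = 6.91e-06). The adaptor Crk rose by 0.33 in WT (limma adjusted p = 0.00181) and 0.33 in KO (limma adjusted p = 0.00224), and Pafah1b2 by 0.25 (0.0138) and 0.42 (0.000243). A further quantile normalization took the Pafah1b2 call in WT away (limma adjusted p = 0.135). Of the receptor, adaptor and kinase genes, Vldlr (0.31, limma adjusted p = 0.0203) and Yes1 (0.73, limma adjusted p = 0.0164) passed in WT alone. The ApoER2 gene Lrp8, Dab1, Fyn and Src passed in neither genotype. None of the 14 passed between genotypes.

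Among 29 measured genes of retinoid handling, the setting of Lrat, 5 rose and 8 fell at 12 h in WT (44.8%, beside 27.8% of all probe sets), and 4 rose and 6 fell in KO (34.5%, beside 20.3%). Dhrs9, a retinol dehydrogenase, fell by 1.75 in WT (limma adjusted p = 9.99e-10) and fell by 1.78 in KO (limma adjusted p = 1.14e-09). The retinol transporter gene Stra6l fell by 0.54 and 0.62, with limma adjusted p of 3.04e-05 and 6.41e-06. The nuclear receptor gene Rxra rose by 0.49 in WT (limma adjusted p = 7.88e-05) and 0.61 in KO (limma adjusted p = 7.16e-06). None of the 29 passed between genotypes.

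Of 43 other matrix proteins 9 rose and 5 fell at 12 h in WT (32.6%, beside 27.8% of all probe sets), and 5 rose and 2 fell in KO (16.3%, beside 20.3%). Fn1, which encodes fibronectin, rose by 0.33 in WT (limma adjusted p = 0.000536) and 0.39 in KO (limma adjusted p = 9.59e-05). Col18a1, whose product is cleaved to endostatin, rose by 0.43 and 0.28, with limma adjusted p of 7.85e-05 and 0.00427, and the basement membrane gene Nid2 fell by 0.49 and 0.50, with limma adjusted p of 0.000937 and 0.000946. Col14a1 came nearest to the threshold between genotypes at 12 h (-0.28, limma adjusted p = 0.125), followed by Efemp1 (-0.39, limma adjusted p = 0.128), and neither passed. The difference at 12 h was below 0 for 26 of the 43 and above 0 for 17, beside 49.6% of all probe sets below 0. At an unadjusted p under 0.05 limma gave 12 of 43, beside 12.5% of all probe sets.

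Of 25 genes of collagen processing 3 rose and 4 fell at 12 h in WT (28%, beside 27.8% of all probe sets), and 2 rose and 3 fell in KO (20%, beside 20.3%). Loxl4, a lysyl oxidase that cross-links collagen, fell by 1.26 in WT (limma adjusted p = 3.24e-06) and fell by 1.33 in KO (limma adjusted p = 1.66e-06), and Ppib, which encodes the collagen-folding cyclophilin B, by 0.31 and 0.41, with limma adjusted p of 0.00273 and 0.000256. Of 21 genes of matrix turnover 2 rose and 3 fell in WT (23.8%), and 1 rose and 2 fell in KO (14.3%). Timp3, a metalloproteinase inhibitor, rose by 1.08 in WT (limma adjusted p = 1.69e-07) and 1.00 in KO (limma adjusted p = 4.49e-07). Of 30 genes of TGF-beta and PDGF signalling 9 rose and 6 fell in WT (50%), and 7 rose and 2 fell in KO (30%). Among them the receptor genes Tgfbr1 and Tgfbr3 rose by 0.80 and 0.44 in WT and by 0.82 and 0.50 in KO, and Pdgfc, a PDGF ligand, fell by 0.62 in WT and 0.72 in KO, all with limma adjusted p under the threshold.

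How the 10 genes varied from mouse to mouse was described after the mean of each group had been taken off. Batch was not taken off, and the 0 h mice came from several batches. At 0 h all mice of batch 1 had lower Col1a2 (8.18 to 8.23) than every other mouse (8.39 to 8.79). They also had higher Dcn (12.06 to 12.09 against 11.80 to 12.04). The part of batch in the correlations was not tested. Of 45 pairs none passed after Benjamini-Hochberg adjustment over the 45. Of these pairs, 6 had a permutation p under 0.05 (100000 shuffles of mice within groups but across batches, two-sided). The highest Pearson r was that of Col1a2 and Col3a1 over 20 mice (r = 0.72, permutation p = 0.00144, adjusted 0.0648; Spearman rho = 0.61, permutation p = 0.0124, adjusted 0.186). Without the 2 mice farthest from the median of Col1a2 it was 0.60, among the 0 h mice 0.86 and among the 12 h mice of batch 5 0.54. Col1a1 and Col1a2 had r = 0.66 (permutation p = 0.00714, adjusted 0.161) and rho = 0.62 (permutation p = 0.0104, adjusted 0.186). Without the 2 mice farthest from the median of Col1a1 their r was 0.49.

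The lowest values were those of Dcn with the collagens. With Col1a2 it was r = -0.61 (permutation p = 0.0214, adjusted 0.321) and rho = -0.66 (permutation p = 0.0107, adjusted 0.186). This r was -0.51 without the 2 mice farthest from the median of Col1a2, -0.66 among the 0 h and -0.50 among the 12 h mice. With Col1a1 it was r = -0.52 and with Col3a1 r = -0.51. Reln and Lrat, both higher at 12 h in WT mice, had r = -0.22, and Dcn and Lum, neighbours on the chromosome, r = 0.36. The 10 genes thus gave values from -0.61 to 0.72, with a median of 0.04, and 25 of 45 above 0.

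**Figure D4:**
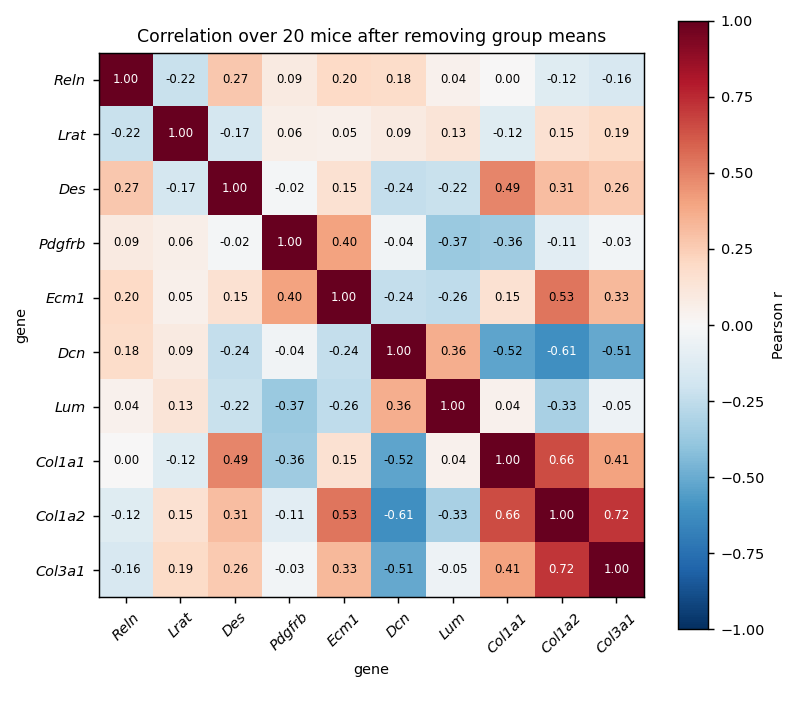
Pearson r (colour and number in each cell) of the log2 levels of each pair of the 10 genes (both axes) over 20 mice. The group mean was taken off, and batch was not. The 3 collagen genes have r of 0.41 to 0.72 with each other and -0.61 to -0.51 with Dcn.

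Of all other single-gene probe sets, the 5 most like Reln by Pearson r over the 20 mice, group means removed, were those of Syn2 (r = 0.83), Ybx1 (0.77), Sirt3 (0.77), Marveld1 (0.77) and Wdfy1 (0.74). Those most like the mean of Col1a1, Col1a2 and Col3a1 were Als2cl (0.82), C1ql2 (0.81), Armc12 (0.80), Tsen54 (0.78) and 2810039B14Rik (0.77). These were picked as the highest of all probe sets, on arrays that share their normalization and with batch not taken off. They are given as a description.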

How the data were processed

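Liver RNA of 20 mice was measured on 20 arrays. The authors deposited RMA values on the log2 scale (RMA is the tool named in the submitters' processing notes, without a version); which arrays they normalized together was not found in the sources. Of 35557 probe sets 9868 were empty and were dropped, and all 25689 others were tested. RMA has already corrected background, so signal over background could not be assessed, and the number of arrays limits the precision.

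Genes were named from the platform annotation, of which 20777 probe sets have 1 gene, 232 several and 4680 none, checked against RefSeq (GRCm38.p6). The files name no genome build.

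Groups follow genotype and time in the labels. limma 3.58.1 in R 4.3.3 was fitted over all probe sets with 4 group means, with Benjamini-Hochberg adjusted p under 0.05 and 95% confidence intervals, and was tested on simulated data. Where a gene had several probe sets, that with the highest mean stood for it. Of other lists, up to 4 passing genes with the smallest adjusted p per direction and comparison could be named, or, where none passed, up to 2 with the smallest unadjusted p. In the reelin pathway the receptor, Dab1 and Src family kinase genes were named as well. The 10 genes, the lists and the tests were chosen with earlier results of these data known. Alternatives were batch as a fixed or random block, quantile normalization, centring on the array median, only probe sets above the median brightness, an intensity trend with a robust prior, only the arrays compared, leaving out each mouse and, chosen after seeing the data, leaving out WT mouse 80 and KO mouse 1. Correlations and figures used Python 3.11.15.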

Additional observations from a re-analysis of the deposited data

Results flagged for a closer look

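The highest or lowest mouse of a group lay far from the other 4 in 3 of 64 sets of 5 values examined (the 10 genes, Crem, the array medians and the means of 4 marker lists), where chance gives about 1 in 20. For Ecm1 the lowest KO mouse at 12 h, mouse 110, was at 10.76 and the others at 10.88 to 10.90. For Col1a1 the highest WT mouse at 0 h, mouse 80, was at 8.83 and the others at 8.36 to 8.48. The array median of the same mouse 80 was 7.24, and those of the other WT mice at 0 h were 7.18 to 7.19.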

How the results depend on the processing

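No paired analysis was possible because no mouse number occurs in more than 1 group. None of the 10 genes passed for genotype, or for the genotype difference in time, under any alternative. Of the 10 genes that passed with time, 3 in WT became 5 (of 9) with only bright probe sets, with Col1a2 and Lum added, and 2 to 4 when single mice were left out. The 2 in KO became 4 with centred arrays, with Reln (0.26, limma adjusted p = 0.0398) and Col1a2 added, and 1 to 3 without single mice, 1 without KO mouse 143 and 3, with Col1a2, without KO mouse 1 or 144. With centred arrays Dcn was lost in WT and Ecm1 added (0.19, limma adjusted p = 0.0322), so that 4 genes were higher. The shares of all probe sets that passed with time under these alternatives are not given here. Lum in WT also passed with an intensity trend and without WT mouse 147 or 167 or any of KO mice 18, 109, 143 and 144. Col1a2 also passed in WT without WT mouse 80 or 167 and in KO without KO mouse 18 or among the bright probe sets alone. Pdgfrb in WT passed after quantile normalization and without WT mouse 145. Reln and Lrat in WT and Dcn in KO passed in all 20 fits without 1 mouse. Dcn in WT passed in 13 of 20, not without WT mouse 78, 111, 145, 146, 167, 168 or 169 or with only the arrays compared (limma adjusted p = 0.059).

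The counts of all probe sets for genotype moved more. At 12 h the 6 became 3 with batch as a fixed block, 2 after quantile normalization, 23 with centred arrays, 23 with only bright probe sets, 11 with an intensity trend, 0 with only the arrays compared, 11 without WT mouse 80 and KO mouse 1, and 1 to 37 without single mice (37, 27 and 11 without WT mouse 167, 169 and 80, 1 without KO mouse 55, 2 without any of WT mice 78, 146 and 147 and KO mice 77 and 143, and 3 without any of WT mouse 145 and KO mice 1, 109 and 110). Over both times the 3 became 1 with only bright probe sets, 6 without WT mouse 80 and KO mouse 1, and 2 to 9 without single mice (9 without WT mouse 167, 5 without KO mouse 144). At 0 h the 0 became 1 without WT mouse 80 and KO mouse 1. The cause was not tested. None of the 45 correlations passed without the 2 mice farthest from the median of 1 gene of the pair. No passing gene of the other lists changed direction, and of their calls under settings other than leaving out 1 mouse 614 were kept and 109 lost. Signal over background limits what low levels can show.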
